A study of Arabidopsis thaliana with 12 samples.

Results

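Dexamethasone (DEX) was tested on *rve8* seedlings, which carry the *rve8-1* mutation of the clock gene *RVE8* and no glucocorticoid receptor fusion. The comparison uses 6 of the 12 RNA-seq libraries of the study, the 3 labelled *rve8* + DEX and the 3 labelled *rve8* + mock. Every seedling in the study is *rve8-1*, so the responses below are those of a mutant and no wild type stands beside them. The other 6 libraries come from *RVE8:GR* seedlings, 3 after DEX and 3 after mock treatment. These seedlings add to *rve8-1* a transgene (RVE8::RVE8:GR) in which the *RVE8* promoter drives *RVE8* joined to the hormone-binding part of the mammalian glucocorticoid receptor (GR). All seedlings were 7 days old and had grown in 12 hr of light and 12 hr of dark on medium with 3% sucrose. At ZT4, which is 4 hr after lights on, groups of about 30 seedlings were moved on their mesh into liquid medium that held DEX or an equal volume of the solvent alone. They were shaken gently for 4 hr and frozen whole at ZT8. Both groups were moved and shaken alike, so the comparison sets DEX against its solvent, and seedlings that were not handled were not analysed here. The labels give the DEX concentration as 30 mM, where the methods of the study give 30 µM.

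Plants lack the glucocorticoid receptor of animals. Their own steroid hormones, the brassinosteroids, bind receptor kinases at the cell surface, of which *BRI1* is the best known. Foreign compounds are oxidised by cytochrome P450s, joined to sugars or glutathione by glycosyltransferases and glutathione S-transferases, and moved out of the cytosol by ABC and MATE transporters. Salicylic acid, an immune hormone, is made in a pathway that uses *ICS1* and *PBS3*, and the transcription factors *SARD1* and *CBP60G* raise its synthesis. Heat shock factors activate chaperone genes when proteins unfold. Glucosinolates are sulfur-rich defence compounds of the cabbage order, made from methionine (the aliphatic kind) or tryptophan (the indolic kind).

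The *rve8* + DEX libraries held 18041353 to 20292633 counts and the *rve8* + mock libraries 15975840 to 16722107, so the mock group was the shallowest of the study. *RVE8* itself, the mutated gene, was at 1.05, 1.33 and 0.601 CPM (reads counted for a gene relative to the size of its library, TMM-adjusted) in *rve8* + DEX and 2.06, 0.606 and 0.712 CPM in *rve8* + mock, against 5.19 to 9.76 CPM in the *RVE8:GR* libraries. The 3 *rve8* + mock libraries were the less alike of the *rve8* groups. Libraries 1 and 3 of that group differed by 11.1 times the counting error (chi-square over degrees of freedom), where the other pairs within a group ranged from 4.44 to 6.40 times. The 19 root markers summed to 1699.7 to 1966 CPM in *rve8* + DEX and 2118 to 2230.4 CPM in *rve8* + mock, a sum that is mostly the root beta-glucosidase *PYK10*. The 18 others summed to 232 to 282 CPM in *rve8* + DEX and 210.2 to 246 CPM in *rve8* + mock, and none of the 19 had an adjusted p under 0.01 (the edgeR quasi-likelihood test, which gave 7 at an unadjusted p under 0.05, while DESeq2 called 2). The 9 shoot markers tested summed to 20936 to 24658 CPM in *rve8* + DEX and 17629 to 21172 CPM in *rve8* + mock. Whole seedlings were ground, so less RNA per cell and fewer cells of a type cannot be told apart in any result below.

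With TMM factors DEX raised more genes than it lowered, and with plain library sizes fewer. Of 19961 genes tested, 790 were raised in *rve8* + DEX (3.96% of all genes tested) and 313 were lowered (1.57%), together 5.53%, by edgeR's quasi-likelihood test at an adjusted p under 0.01. Most changes were small. The median log2 fold change of the raised genes was 0.50 and that of the lowered genes -0.40, and 94 raised and 39 lowered genes changed at least 2-fold. Raised genes made up 71.6% of the calls with TMM factors, 59.6% with upper-quartile factors (644 raised and 436 lowered) and 39.3% with plain library sizes (520 raised and 803 lowered), where the median gene stood at -0.09 in place of -0.01. Leaving out *rve8* + mock 2 left 398 raised and 114 lowered genes, *rve8* + DEX 1 left 462 and 118, *rve8* + DEX 2 left 509 and 154, and *rve8* + mock 1 left 512 raised genes, while 895 were raised and 506 lowered without *rve8* + mock 3. All 3 DEX libraries stood above all 3 mock libraries in 789 of the raised genes, and below them in all 313 of the lowered genes, against 15.7% and 13.8% of all genes tested. The calls were made on these same libraries, so this separation follows from them and adds no support. A permutation of 3 libraries against 3 cannot give an exact two-sided p under 0.1, so single genes were judged by the fit across all genes.

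**Figure D1:**
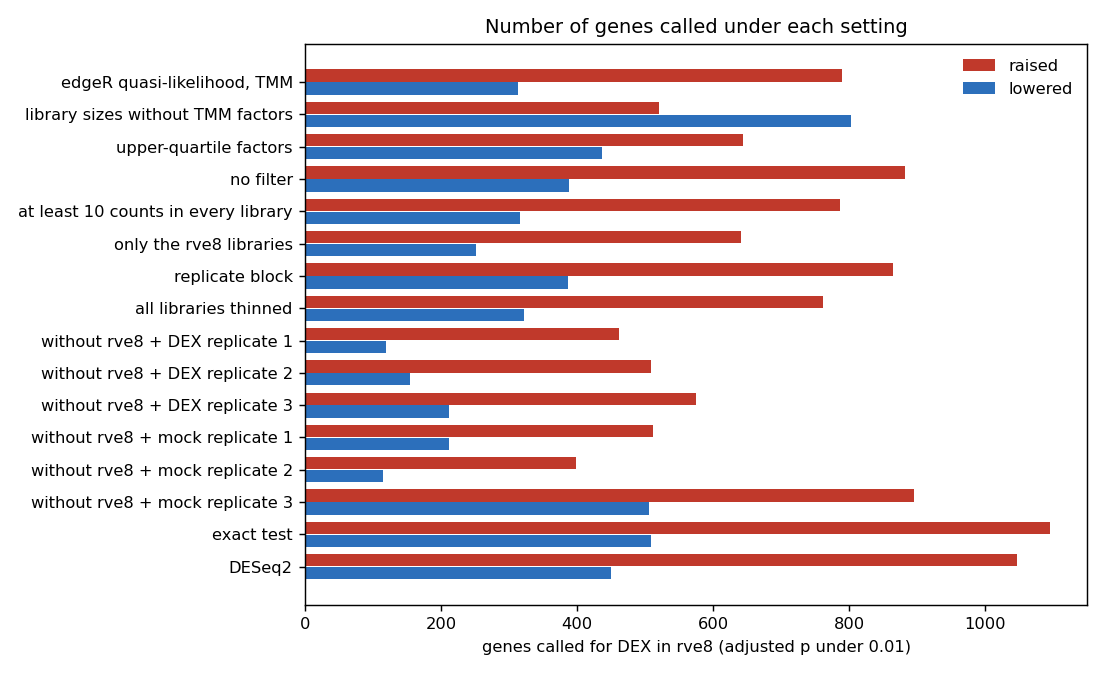
Number of genes raised and lowered by DEX in *rve8* (x axis) under each setting of the analysis (y axis), at an adjusted p under 0.01. The bars for raised genes are longer than those for lowered genes except with library sizes that carry no TMM factors, 520 against 803.

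Genes of salicylic acid synthesis and immunity were among the largest increases. Of the 27 members tested from a list of 32, 11 were raised (40.7%) and 0 were lowered, with a median log2 fold change of 0.41 against -0.01 over all genes. The raised members were *PBS3*, *SARD1*, *PR5*, *CBP60G*, *FMO1*, *WRKY46*, *WRKY70*, *PAD4*, *ICS1*, *MPK3* and *RBOHD*. Their log2 fold changes ran from 0.44 (*RBOHD*) to 2.26 (*PBS3*). *PBS3*, an enzyme that joins glutamate to isochorismate in salicylic acid synthesis, was at 10.7, 10.47 and 18.9 CPM in *rve8* + DEX and 2.41, 2.54 and 3.44 CPM in *rve8* + mock, with the highest value in DEX library 3 (log2 fold change 2.26 ± 0.23, SE, adjusted p = 1.57e-05). *SARD1* and *CBP60G*, a pair of related transcription factors that activate *ICS1*, rose too. *SARD1* was at 5.67, 3.59 and 5.66 CPM in *rve8* + DEX and 0.882, 1.70 and 0.771 CPM in *rve8* + mock (log2 fold change 2.16 ± 0.30, adjusted p = 8.06e-05). *CBP60G* was at 21.6, 21.2 and 33.5 CPM in *rve8* + DEX and 8.06, 10.54 and 6.88 CPM in *rve8* + mock (log2 fold change 1.59 ± 0.21, adjusted p = 5.22e-04). *ICS1* itself, which makes isochorismate, changed less, with 24.5, 23.3 and 25.4 CPM in *rve8* + DEX and 14.4, 17.1 and 17.3 CPM in *rve8* + mock. *PR5*, a thaumatin-like protein that marks the salicylic acid response, was at 13.5, 15.3 and 13.3 CPM in *rve8* + DEX and 2.59, 3.76 and 3.44 CPM in *rve8* + mock, so that its lowest DEX library stood well above its highest mock library (log2 fold change 2.1 ± 0.17, adjusted p = 3.12e-07).

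**Figure D2:**
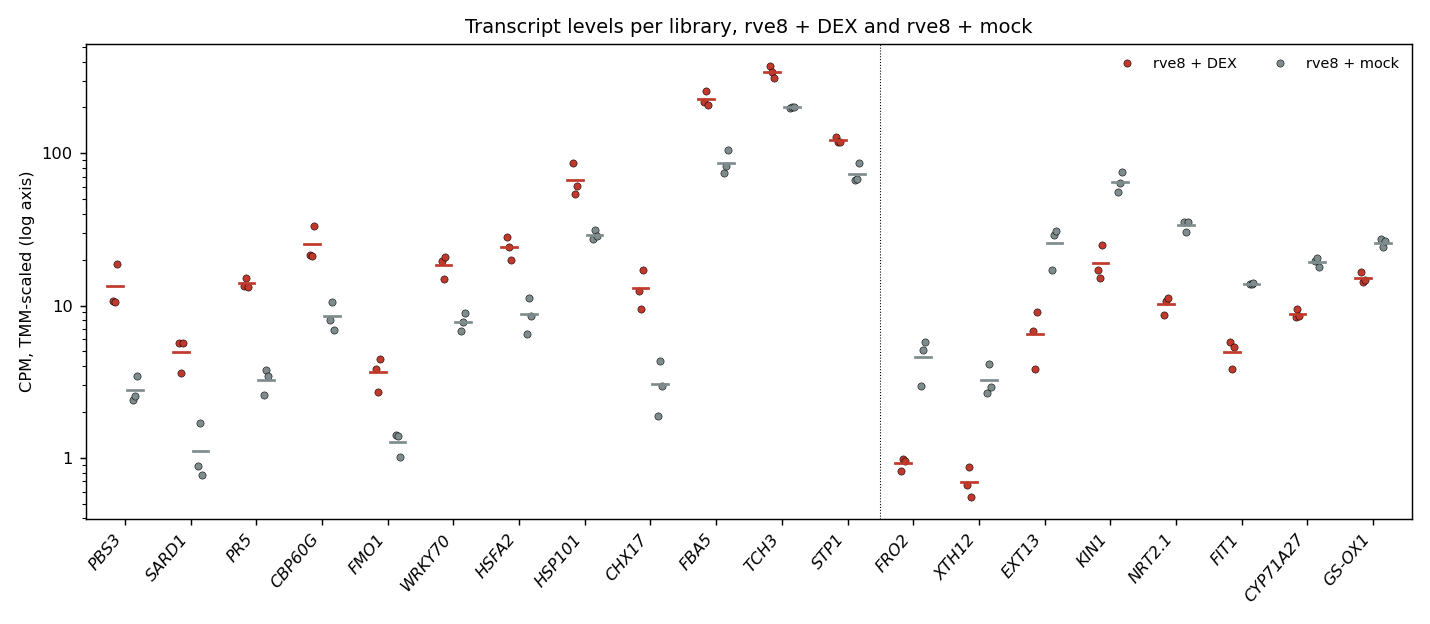
Transcript level in CPM (y axis, log scale) of 20 named genes (x axis) in the 3 libraries of *rve8* + DEX (left of each pair) and of *rve8* + mock, with a bar at each mean. The 12 genes left of the dotted line were raised and the 8 on its right were lowered, and in each of them the 2 groups do not overlap.

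Other immune genes of the list rose as well. *FMO1*, which makes the mobile immune signal N-hydroxypipecolic acid, was at 3.85, 2.72 and 4.46 CPM in *rve8* + DEX and 1.41, 1.39 and 1.01 CPM in *rve8* + mock. *WRKY70* and *WRKY46*, transcription factors of the salicylic acid response, had log2 fold changes of 1.24 and 1.25. Of the 48 WRKY genes tested 3 were raised (6.25%), near the 3.96% of all genes tested, and 0 lowered. *PAD4*, a lipase-like partner of *EDS1*, had a log2 fold change of 1.05 ± 0.14, *MPK3*, a kinase of immune signalling, 0.57 ± 0.08, and *RBOHD*, the oxidase of the oxidative burst, 0.44 ± 0.06. Other members did not pass the test. *EDS5*, which exports isochorismate from the plastid, was at 11.1, 8.62 and 12.0 CPM in *rve8* + DEX and 11.9, 13.6 and 11.0 CPM in *rve8* + mock, and *NPR1*, a salicylic acid receptor, had a log2 fold change of 0.22 (adjusted p = 0.101). *PR1* and 4 other members (*NIMIN1*, *WRKY38*, *ALD1* and *CYP71A13*) were below the filter on low counts. The 11 raised members were called in each of the 15 alternative fits, which kept the threshold and set no minimum fold change. In *RVE8:GR* the list had a median log2 fold change of 0.15, with 4 members raised, and the response differed between the lines for *RBOHD* alone among the 27 (difference -0.43, adjusted p = 0.00750).

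Groups of immune genes were also picked by annotation, after their values had been seen. Of 90 genes annotated as disease resistance proteins, the intracellular NBS-LRR receptors, 21 were raised (23.3%) and 0 lowered, with a median of 0.29. Among them AT5G58120 averaged 17.5 ± 0.862 CPM in *rve8* + DEX and 8.59 ± 1.55 CPM in *rve8* + mock (SD, n = 3 each), and the white rust resistance gene *WRR4* averaged 50.6 ± 4.29 CPM in *rve8* + DEX and 32.3 ± 1.54 CPM in *rve8* + mock. At least 10% of the sequence of 13 of these 21 occurs in another gene model, which leaves these uncertain. Of 18 chitinases, with a median of 0.05, 4 were raised (22.2%, against 3.96% of all genes tested, and 2 without *rve8* + mock 2). They were led by AT2G43590 at 117, 85.2 and 141 CPM in *rve8* + DEX and 45.2, 42.6 and 44.6 CPM in *rve8* + mock. The number of disease resistance genes raised was 9 without *rve8* + DEX 1, 11 without *rve8* + DEX 2, 12 without *rve8* + mock 2 and 10 without TMM factors. In *RVE8:GR* 2 of these 90 genes were raised, and the responses of 5 differed between the lines.

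A chaperone response stood beside the immune one. Of 25 heat shock genes tested, 8 were raised (32.0%) and 0 lowered, with a median of 0.51. *HSFA2*, the heat shock factor that prolongs the response, was at 28.4, 24.4 and 19.98 CPM in *rve8* + DEX and 6.53, 11.3 and 8.48 CPM in *rve8* + mock (log2 fold change 1.47 ± 0.19, adjusted p = 2.16e-04). *HSP101*, the disaggregase needed for heat tolerance, was at 86.1, 53.7 and 61.1 CPM in *rve8* + DEX and 27.5, 31.3 and 28.8 CPM in *rve8* + mock (log2 fold change 1.2 ± 0.16, adjusted p = 6.00e-04). *HSP70* was at 382, 307 and 294 CPM in *rve8* + DEX and 143, 173 and 158 CPM in *rve8* + mock, and DEX library 1 was the highest for each of these genes. *HSP90.1*, the inducible cytosolic member of its family, was at 139, 117 and 126 CPM in *rve8* + DEX and 57.9, 71.1 and 53.8 CPM in *rve8* + mock. The other raised members were *HSFB2A*, *MBF1C*, *HSFB1* and the abundant constitutive chaperone *HSC70-1*, with log2 fold changes of 0.97, 0.89, 0.53 and 0.26. Of 17 genes with an HSP symbol 4 were raised (23.5%) and 2 lowered (11.8%), against 3.96% and 1.57% of all genes tested. The lowered were the chaperonins *HSP60-2* and *HSP60-3A* with log2 fold changes of -0.30 and -0.27. Without *rve8* + DEX 1, DEX 3, mock 1 or mock 2 the number lowered was 0.

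Most small heat shock proteins, which are strongly induced by heat, did not pass the test. *HSP18.2* was at 2.31, 1.504 and 1.65 CPM in *rve8* + DEX and 3.41, 2.00 and 2.37 CPM in *rve8* + mock, and *HSP17.4* was at 8.97, 4.74 and 7.21 CPM in *rve8* + DEX and 3.47, 7.15 and 4.15 CPM in *rve8* + mock, so that the groups overlapped for both. None of the 5 class I and class II members of the list tested (*HSP17.4*, *HSP17.6A*, *HSP17.6II*, *HSP18.2* and AT1G53540) was called by edgeR, and their adjusted p ran from 0.241 to 0.844. Of 27 genes annotated as HSP20-like, a group chosen after its values were seen, 2 were raised (7.41%, against 3.96% of all genes tested). They were led by AT1G59860 at 9.46, 8.27 and 7.46 CPM in *rve8* + DEX and 2.82, 4.85 and 2.97 CPM in *rve8* + mock. J-domain proteins, which hand clients to *HSP70*, were searched by annotation after their values had been seen. Of 110 tested 8 were raised (7.27%, against 3.96% of all genes tested, and 5 without *rve8* + DEX 1) and 0 lowered. Among the raised was AT2G20560 at 29.1, 21.6 and 19.2 CPM in *rve8* + DEX and 13.0, 12.4 and 11.0 CPM in *rve8* + mock. AT5G23240, a J-domain protein and 1 of the 15 largest increases, was at 12.8, 10.12 and 10.6 CPM in *rve8* + DEX and 3.35, 3.27 and 3.499 CPM in *rve8* + mock. Without *rve8* + DEX 3 only 4 of the 8 heat shock genes were called, while *HSFA2*, *HSP101*, *HSP90.1* and *HSP70* were called in each of the 15 alternative fits.

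Promoters of the raised genes were searched for the heat shock element, the site that heat shock factors bind. A promoter was taken as the 300 bases from 250 before to 50 after the annotated transcript start, which could be read for 19782 of the genes tested, and the element as 3 alternating units of GAA and its reverse complement TTC with any 2 bases between them, on either strand. It occurred in 106 of the 19782 promoters (0.536%), in 11 of 789 promoters of raised genes (1.39%) and in 0 of the 313 of lowered genes. Those 11 include *HSFA2* and *HSP70*, as well as *Hop3*, a co-chaperone that links *HSP70* with HSP90, *RING1*, a ubiquitin ligase, and the clock gene *PRR7*. Another of the 11 is AT3G09440, annotated as a heat shock protein 70 family member. Stretches of 30 bases around the element are shown for *HSFA2*, *HSP70*, *Hop3*, *RING1* and *PRR7*, which were picked after the values were seen. They read 5′ to 3′ on the strand of the gene, with the element in capitals.
HSFA2: ttagtaacGAAGTTTCTGGAAcattgtctt
HSP70: ttactcgtGAACGTTCTCGAAagctctttg
Hop3: aaaaattcGAAATTTCGAGAActctcttgt
RING1: ttatcactTTCAGGAAATTTCcacccactt
PRR7: cgtggaacTTCTCGAACGTTCgggacctct
In the TAIR10.1 genome the *HSFA2* stretch lies at chr2:11135528-11135557 on the forward strand, with the centre of the element 82 bases before the start, and the *HSP70* stretch at chr3:3993845-3993874 on the reverse strand, 26 bases after it. The *Hop3* stretch lies at chr4:7341318-7341347 on the reverse strand, the *RING1* stretch at chr5:3267493-3267522 on the forward strand and the *PRR7* stretch at chr5:642083-642112 on the reverse strand. *Hop3* had a log2 fold change of 0.78 ± 0.11 (SE) in *rve8*. Of the 25 heat shock genes 7 hold the element, and of the 8 raised ones 2 do. A match describes the sequence and does not show binding. The palindrome that the animal glucocorticoid receptor binds, AGAACA and TGTTCT with any 3 bases between them, was found in 0 of the 19782 promoters. So long a fixed pattern is rare by its length alone, so no conclusion is drawn from the 0. The W-box, the WRKY site (TTGACC or TTGACT), was in 32.7% of all promoters, in 38.3% of those of raised genes and in 3 of the 11 of the raised immune genes.

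Touch and calcium genes, which respond quickly to handling, were also tested, since seedlings of both groups had been moved and shaken. Of 13 tested 4 were raised (30.8%) and 0 lowered, with a median of 0.46. *TCH3*, a calmodulin-like protein, was at 376, 343 and 311 CPM in *rve8* + DEX and 199, 202 and 202 CPM in *rve8* + mock (log2 fold change 0.77 ± 0.08, adjusted p = 2.87e-06). *ERF6* and *ERF104*, ethylene response factors phosphorylated in immune and stress signalling, had log2 fold changes of 1.26 ± 0.18 and 0.83 ± 0.12, and the zinc finger *ZAT10* of 0.58 ± 0.12. The xyloglucan enzyme *TCH4* was at 109.9, 117 and 110.3 CPM in *rve8* + DEX and 75.2, 84.7 and 85.4 CPM in *rve8* + mock and did not pass the test (adjusted p = 0.0174). The call of *ZAT10* was lost without any of *rve8* + DEX 1, DEX 2, mock 1 and mock 2, and the other 3 were called in each of the 15 alternative fits. Of 14 low-oxygen genes, which mark submerged tissue, 0 were called in either direction by edgeR, with 4 at an unadjusted p under 0.05 and 0 called by DESeq2, and their median was 0.03. The exact test, no TMM factors, no filter and thinning each gave 1 lowered.

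The detoxification genes were mixed. Of 35 tested 5 were raised (14.3%) and 1 was lowered (2.86%), with a median of 0.24. *UGT73C5*, a glycosyltransferase known to inactivate brassinosteroids and fungal toxins, was at 151, 132 and 131 CPM in *rve8* + DEX and 73.5, 79.5 and 95.4 CPM in *rve8* + mock (log2 fold change 0.74 ± 0.11, adjusted p = 4.88e-04). Its neighbour *UGT73C6* was at 39.3, 42.2 and 33.7 CPM in *rve8* + DEX and 19.8, 17.57 and 23.8 CPM in *rve8* + mock (log2 fold change 0.91 ± 0.14, adjusted p = 4.39e-04). The glutathione S-transferases *GSTF7*, *GSTF8* and *GSTU5* had log2 fold changes of 1.04, 0.51 and 0.40, the call of *GSTF7* being lost without any 1 of the mock libraries, while *GSTU25* (call lost without *rve8* + mock 2) fell to 6.16, 4.11 and 5.51 CPM in *rve8* + DEX, against 11.1, 13.3 and 7.71 CPM in *rve8* + mock. By family, 3 of 43 glutathione S-transferases (6.98%), 5 of 50 glycosyltransferases (10%) and 4 of 71 MATE and ABC transporters (5.63%) were raised, against 3.96% of all genes tested. Lowered were 1, 1 and 2 (2.33%, 2% and 2.82%), against 1.57% of all genes tested. Of 157 cytochrome P450s tested 17 were raised (10.8%) and 11 lowered (7.01%). *CYP710A4*, a sterol desaturase that shares 17.7% of its sequence with other models, fell to 0.385, 0.347 and 0.10 CPM in *rve8* + DEX, against 1.82, 1.27 and 1.60 CPM in *rve8* + mock. The P450 counts were 9 raised without *rve8* + DEX 1, 8 raised without *rve8* + mock 2 and 7 lowered without *rve8* + DEX 2. The glycosyltransferases raised were 2 or 3 without any 1 library but *rve8* + mock 3, and the transporters raised were 1 without *rve8* + mock 2. The exact test called 16 of the 35 detoxification genes raised and DESeq2 called 10.

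Few genes of brassinosteroid and sterol synthesis and response were called. Of 29 tested 3 were raised (10.3%) and 0 lowered, with a median of 0.09. *CPD*, a P450 of brassinosteroid synthesis that the hormone itself represses, was at 90.0, 93.2 and 88.4 CPM in *rve8* + DEX and 68.1, 69.9 and 71.9 CPM in *rve8* + mock (log2 fold change 0.37 ± 0.06, adjusted p = 3.82e-04), and this call held in each of the 15 alternative fits. *BEE1* and *BEE3*, transcription factors that the hormone raises, had log2 fold changes of 0.57 ± 0.13 and 0.38 ± 0.09, and lost their calls without TMM factors and without any of the 3 DEX libraries or *rve8* + mock 2. *DWF4*, the rate-limiting P450 of the pathway, had a log2 fold change of -0.13 (adjusted p = 0.491) and the receptor *BRI1* of 0.09 (adjusted p = 0.424).

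Most photosynthesis genes of the list rose, by small amounts. All 32 nuclear genes tested for light harvesting, photosystem subunits and Rubisco had a positive log2 fold change, with a median of 0.33, and 20 were raised (62.5%). They summed to 99231 to 109604 CPM in *rve8* + DEX and 76687 to 89461 CPM in *rve8* + mock. In *RVE8:GR* the sums were 94013 to 98931 CPM with DEX and 94266.5 to 98125 CPM with mock, so *rve8* + mock was the lowest of the 4 groups. *LHB1B1*, a major antenna protein of photosystem II, was at 953, 1012 and 854 CPM in *rve8* + DEX and 599, 487 and 629 CPM in *rve8* + mock (log2 fold change 0.72 ± 0.08, adjusted p = 1.36e-05). *LHCA2*, an antenna protein of photosystem I, was at 2439, 2463 and 2250.0 CPM in *rve8* + DEX and 1612, 1633 and 1959 CPM in *rve8* + mock. *RCA*, which activates Rubisco, was at 5647, 5968 and 5613 CPM in *rve8* + DEX and 4068, 4217 and 4293 CPM in *rve8* + mock. In *LHCA2*, and in *CAB1* at 11922, 12401 and 11753 CPM in *rve8* + DEX and 8737, 9107 and 11037 CPM in *rve8* + mock, mock library 3 stood between the other mock libraries and the DEX libraries. *PSBP-1* and *PSBO1* of the oxygen-evolving complex and *PSAL* of photosystem I had log2 fold changes of 0.50, 0.38 and 0.45. The number raised was 7 without *rve8* + mock 2, 8 without *rve8* + DEX 1 or DEX 2, 10 without *rve8* + mock 1, 25 without *rve8* + mock 3 and 14 without TMM factors, and 5 of the 20, *CAB1*, *CAB2*, *CAB3*, *LHB1B1* and *LHB1B2*, share at least 10% of their sequence with another model. Of the other leaf genes, *RBCS1A* was at 18553, 22223 and 20941 CPM in *rve8* + DEX and 15958, 15968 and 19289 CPM in *rve8* + mock (adjusted p = 0.0353, not called) and *CA1*, a carbonic anhydrase, rose with a log2 fold change of 0.44 ± 0.07 (adjusted p = 3.82e-04), while the 7 shoot markers other than these summed to 291 to 319 CPM in *rve8* + DEX and 253 to 300.2 CPM in *rve8* + mock. The part of leaf share in these changes was not tested.

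**Figure D3:**
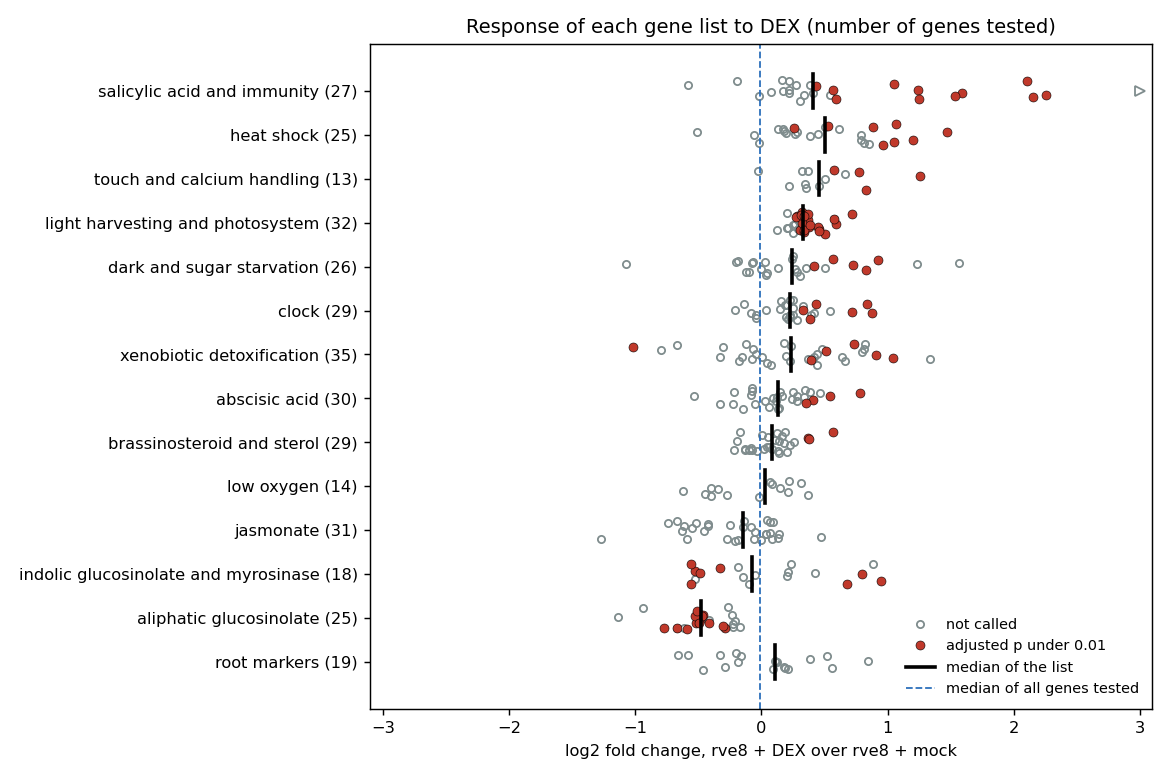
log2 fold change of *rve8* + DEX over *rve8* + mock (x axis) for each gene tested in 14 gene lists (y axis, number tested in parentheses). Filled points passed an adjusted p under 0.01, open points did not, black bars are list medians and the dashed line is the median of all genes tested at -0.01. The arrow at the right marks *PR2*, at 5.55, which did not pass. The aliphatic glucosinolate genes lie below 0 and the photosystem genes above it.

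Pigment genes followed in part. Of 26 chlorophyll and carotenoid genes 7 were raised (26.9%) and 0 lowered. *CCD4*, which cleaves carotenoids in plastids, was at 48.6, 51.5 and 47.4 CPM in *rve8* + DEX and 24.6, 25.9 and 37.8 CPM in *rve8* + mock. *GUN5*, the large subunit of magnesium chelatase, averaged 1080.0 ± 78.5 CPM in *rve8* + DEX and 843 ± 29.7 CPM in *rve8* + mock (SD, n = 3 each). *PAO* and *NYC1*, enzymes of chlorophyll breakdown, had log2 fold changes of 0.48 and 0.31, so raised genes lay on both the synthetic and the degradative side. The violaxanthin de-epoxidase *NPQ1* (0.31), the cyclase *LYC* (0.29) and the dioxygenase *CCD1* (0.26) complete the 7. The number raised was 1 without *rve8* + DEX 2 or mock 2, 2 without *rve8* + DEX 1, 4 without *rve8* + DEX 3 or mock 1, and 3 without TMM factors.

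Several clock genes that peak in the morning were raised. Of 29 clock genes 6 were raised (20.7%) and 0 lowered, with a median of 0.23. *CCA1*, a MYB-like repressor that peaks at dawn, was at 45.7, 62.5 and 50.3 CPM in *rve8* + DEX and 27.9, 26.4 and 31.7 CPM in *rve8* + mock (log2 fold change 0.88 ± 0.10, adjusted p = 9.25e-06). *LHY*, its closest relative, was at 8.36, 13.7 and 10.47 CPM in *rve8* + DEX and 5.35, 6.24 and 8.07 CPM in *rve8* + mock, with the lowest DEX library only just above the highest mock library. *RVE1*, a MYB-like factor that controls auxin levels, was at 8.64, 11.0 and 7.66 CPM in *rve8* + DEX and 4.18, 5.21 and 5.81 CPM in *rve8* + mock. *LNK1* and *LNK2*, coactivators of evening genes, had log2 fold changes of 0.33 and 0.43, and *PRR7*, a daytime repressor, of 0.39 ± 0.06. The evening genes *TOC1*, *PRR5* and *GI* did not pass the test, with log2 fold changes of 0.25, 0.20 and 0.23 (adjusted p = 0.0205, 0.196 and 0.0156). *PRR9*, a morning repressor, was at 15.3, 19.3 and 17.8 CPM in *rve8* + DEX and 12.4, 13.0 and 13.8 CPM in *rve8* + mock and did not pass either (adjusted p = 0.0136). The evening element (AAATATCT on either strand), which *RVE8* and *CCA1* bind, was in 5.86% of all 19782 promoters, in 9.63% of those of the 789 raised genes and in 4.47% of those of the 313 lowered genes, and in 0 of the 6 raised clock genes. *CCA1* and *PRR7* were called in each of the 15 alternative fits, whereas the count was 3 without *rve8* + DEX 2 or mock 1 and 2 without *rve8* + mock 2, since *LHY*, *RVE1*, *LNK1* and *LNK2* were each lost without that library.

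The B-box factors, zinc fingers of light signalling and flowering, were raised in 6 of 22 cases (27.3%, against 3.96% of all genes tested) and lowered in 0. *BBX16* was at 22.1, 24.7 and 22.1 CPM in *rve8* + DEX and 14.1, 14.1 and 14.4 CPM in *rve8* + mock (log2 fold change 0.69 ± 0.10, adjusted p = 8.02e-05). *COL2*, a relative of the flowering regulator *CO*, was at 22.4, 31.6 and 26.1 CPM in *rve8* + DEX and 15, 19.3 and 19.9 CPM in *rve8* + mock and was the only 1 of 11 flowering genes called. *COL4*, *BBX27*, *BBX28* and *BBX14* had log2 fold changes of 0.42, 0.56, 0.38 and 0.30. The count was 2 without *rve8* + DEX 2 or mock 2 and 3 without TMM factors, and the call of *COL2* was lost without any of *rve8* + DEX 2, DEX 3, mock 1 and mock 2 and without TMM factors.

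Some genes that mark darkness and low sugar were raised, in seedlings grown with sucrose in both groups. Of 26 tested 5 were raised (19.2%) and 0 lowered, with a median of 0.25. *STP1*, a hexose importer that sugar represses, was at 128, 118 and 119 CPM in *rve8* + DEX and 66.2, 67.3 and 86.4 CPM in *rve8* + mock (log2 fold change 0.73 ± 0.09, adjusted p = 1.05e-04). *DRM2* and *DYL1*, dormancy-associated proteins, had log2 fold changes of 0.83 ± 0.13 and 0.92 ± 0.17, *DIN10*, a raffinose synthase relative, of 0.57 ± 0.10, and *GDH1*, a glutamate dehydrogenase, of 0.41 ± 0.09. *ASN1*, the asparagine synthetase of dark-treated leaves, was at 9.41, 8.39 and 11.7 CPM in *rve8* + DEX and 4.00, 3.39 and 2.55 CPM in *rve8* + mock but did not pass (adjusted p = 0.0262). *STP1* was called in each of the 15 alternative fits, and the count was 2 without *rve8* + DEX 1, mock 1 or mock 2 and 3 without *rve8* + DEX 2 or DEX 3. Of 21 genes of starch breakdown 4 were raised (19.0%, against 3.96% of all genes tested) and 0 lowered. The exact test, DESeq2 and the *rve8* libraries alone each gave 1 lowered. *BAM9*, *BAM1* and *BAM3*, beta-amylases or their relatives, had log2 fold changes of 0.57 ± 0.10, 0.44 ± 0.07 and 0.37 ± 0.07, and *SEX1*, which phosphorylates starch, was at 203, 181 and 179.8 CPM in *rve8* + DEX and 146, 136 and 137 CPM in *rve8* + mock. Of 16 genes of starch synthesis and 16 of branched-chain amino acid and proline breakdown, edgeR called 0 in either direction, with 4 at an unadjusted p under 0.05 in each list, and DESeq2 called 1 in each.

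Aliphatic glucosinolate synthesis was the only 1 of the 29 lists in which every gene tested had a negative log2 fold change. These 25 genes had a median of -0.48, and 14 were lowered (56.0%) and 0 raised. In 24 of the 25 all 3 DEX libraries lay below all 3 mock libraries, against 13.8% of all genes. *MAM1*, which elongates the methionine side chain, was at 150.2, 140.5 and 151 CPM in *rve8* + DEX and 213, 207 and 212 CPM in *rve8* + mock (log2 fold change -0.52 ± 0.07, adjusted p = 3.30e-05). Its partners in chain elongation *IPMI1*, *IPMI2*, *IMD1*, *BCAT4* and the transporter *BASS5* had log2 fold changes of -0.52, -0.42, -0.51, -0.48 and -0.49. In the core pathway, *CYP83A1* was at 158, 144 and 138 CPM in *rve8* + DEX and 227, 197 and 187 CPM in *rve8* + mock, and the sulfotransferase *SOT17* at 38.01, 36.6 and 38.7 CPM in *rve8* + DEX and 59.2, 63.2 and 48.0 CPM in *rve8* + mock. *GS-OX1*, which oxidises the finished side chain, was at 16.6, 14.2 and 14.8 CPM in *rve8* + DEX and 27.4, 24.0 and 26.3 CPM in *rve8* + mock (log2 fold change -0.77 ± 0.09, adjusted p = 2.71e-05). The regulators moved with the enzymes. *MYB29* was at 23.3, 22.5 and 23.1 CPM in *rve8* + DEX and 34.0, 30.0 and 32.4 CPM in *rve8* + mock, and *MYB28*, the main activator of the pathway, at 85.6, 80.0 and 73.2 CPM in *rve8* + DEX and 93.5, 98.1 and 101 CPM in *rve8* + mock. *CYP79F1*, which makes the first committed step, had a log2 fold change of -0.94 that did not pass (adjusted p = 0.0107). The number lowered was 9 without *rve8* + DEX 3 or mock 2 and 17 without *rve8* + mock 3, and the exact test and DESeq2 called 19 each. The calls of *MYB28*, *IMD1* and *BASS5* were among those lost without *rve8* + DEX 2, DEX 3 or mock 2.

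The indolic branch split. Of 18 indolic glucosinolate and myrosinase genes 5 were lowered (27.8%) and 3 raised (16.7%). *CYP79B2* and *CYP79B3*, which turn tryptophan into indole-3-acetaldoxime, fell, *CYP79B3* to 66.6, 61.3 and 56.3 CPM in *rve8* + DEX, against 93.2, 92.1 and 84.9 CPM in *rve8* + mock. *MYB34*, an activator of these enzymes, fell to 44.6, 48.6 and 47.1 CPM in *rve8* + DEX, against 66.1, 69.1 and 71.8 CPM in *rve8* + mock (log2 fold change -0.56 ± 0.07, adjusted p = 5.34e-05). *MYB51*, another activator that responds to pathogens, was raised (log2 fold change 0.68 ± 0.13), as were *CYP81F2* (0.95 ± 0.19) and *IGMT2* (0.80 ± 0.11), which make the methoxylated form used in immunity. *IGMT2* shares 33% of its sequence with other models, and the calls of *MYB51* and *CYP81F2* were lost without any of *rve8* + DEX 1, DEX 3, mock 1 and mock 3. Without *rve8* + DEX 2 the number lowered was 3.

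Lowered genes outside glucosinolate synthesis included some of nutrient uptake and the cell wall. The nutrient lists were mixed. Of 23 nitrate and sulfate assimilation genes 3 were lowered (13.0%) and 2 raised (8.70%), with a median of 0.08. Of 20 iron and phosphate genes 2 were lowered (10%) and 1 raised (5%), with a median of -0.22. Over all genes tested 1.57% were lowered and 3.96% raised. *FIT1*, the transcription factor of iron uptake, was at 5.72, 3.82 and 5.36 CPM in *rve8* + DEX and 13.9, 13.8 and 14.1 CPM in *rve8* + mock (log2 fold change -1.48 ± 0.15, adjusted p = 3.12e-06). *FRO2*, the ferric reductase that *FIT1* activates, was at 0.825, 0.983 and 0.951 CPM in *rve8* + DEX and 2.94, 5.09 and 5.75 CPM in *rve8* + mock. The ammonium transporter *AMT1;3* was at 6.93, 6.31 and 7.96 CPM in *rve8* + DEX and 16.5, 13.3 and 13.8 CPM in *rve8* + mock, and the nitrate transporter *NRT2.1* at 8.64, 10.6 and 11.2 CPM in *rve8* + DEX and 35.2, 30.2 and 35.4 CPM in *rve8* + mock. *EXT13*, an extensin-like protein, was at 6.82, 3.82 and 9.01 CPM in *rve8* + DEX and 17.1, 29.3 and 31.1 CPM in *rve8* + mock, and *XTH12*, a xyloglucan enzyme, at 0.660, 0.868 and 0.551 CPM in *rve8* + DEX and 2.65, 4.12 and 2.91 CPM in *rve8* + mock. Of 45 expansin and xyloglucan genes 6 were lowered (13.3%, and 3 without *rve8* + DEX 2 or mock 1) and 2 raised (4.44%). The raised ones were *EXPA8* at 115, 97.6 and 105 CPM in *rve8* + DEX and 45.4, 51.7 and 66.5 CPM in *rve8* + mock and *EXPA1* (log2 fold change 0.53). Of the 19 root markers 11 had a positive and 8 a negative log2 fold change, with a median of 0.11, and 0 were called. Among them *COBL9*, *LRX1* and *EXPA18* had log2 fold changes of -0.59, -0.66 and -0.46 and the root water channel *TIP2;2* of 0.56. The first of these are root hair genes, picked after their values were seen, and the list holds other root hair genes. The part of root share was not tested. The call of *NRT2.1* was lost when any 1 of the 6 libraries was left out, and that of *EXT13* without *rve8* + DEX 1, DEX 2, mock 2 or mock 3.

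Single genes among the largest changes had other roles. *CHX17*, a cation/proton exchanger, was at 12.5, 9.54 and 17.2 CPM in *rve8* + DEX and 1.88, 4.301 and 2.97 CPM in *rve8* + mock, and *FBA5*, a cytosolic aldolase, at 217, 255.5 and 207 CPM in *rve8* + DEX and 73.6, 82.4 and 105 CPM in *rve8* + mock. *ACD6*, an ankyrin protein that acts with salicylic acid in a feedback loop, was at 39.2, 31.0 and 44.7 CPM in *rve8* + DEX and 12.9, 13.2 and 12.4 CPM in *rve8* + mock (call lost without *rve8* + mock 1). The peroxidases AT1G49570 and *PER4* had log2 fold changes of 1.48 ± 0.24 and 1.57 ± 0.29, the germin-like *GLP9* of 1.48 ± 0.25, the calcium-binding protein AT5G39670 of 1.55 ± 0.24 and the membrane protein AT5G25260 of 1.83 ± 0.36. The calls of *PER4*, *GLP9* and AT5G25260 were each lost without *rve8* + DEX 1, mock 1 or mock 3. Among the decreases, *KIN1*, a cold- and abscisic acid-induced protein, was at 17.0, 15.1 and 25.1 CPM in *rve8* + DEX and 55.8, 63.7 and 75.4 CPM in *rve8* + mock (log2 fold change -1.76 ± 0.18, adjusted p = 2.86e-04) and was the only 1 of 13 cold-regulated genes called. *CYP71A27* was at 8.47, 9.43 and 8.56 CPM in *rve8* + DEX and 19.6, 20.5 and 18.0 CPM in *rve8* + mock, and the cellulase *CEL5* at 2.97, 3.99 and 3.25 CPM in *rve8* + DEX and 8.06, 10.8 and 8.42 CPM in *rve8* + mock. *ST4B*, a sulfotransferase, was at 4.24, 2.78 and 4.01 CPM in *rve8* + DEX and 8.00, 7.03 and 7.71 CPM in *rve8* + mock. The decreases of the lipid-transfer proteins AT5G46890 (-1.62 ± 0.27) and AT4G33550 (-1.18 ± 0.22) were not called without *rve8* + DEX 2 or mock 2, and AT5G46890 shares 26.8% of its sequence with other models.

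Other hormone lists held few calls. Of 31 jasmonate genes edgeR called 0 in either direction, with 6 at an unadjusted p under 0.05, DESeq2 called 0 and the exact test 4 lowered, and their median was -0.15. Of 30 abscisic acid genes 4 were raised (13.3%, against 3.96% of all genes tested, and 2 without *rve8* + DEX 1) and 0 lowered. *CYP707A3*, which breaks the hormone down, was at 19.4, 21.7 and 21.2 CPM in *rve8* + DEX and 12.8, 11.9 and 11.6 CPM in *rve8* + mock, and *ABA1*, an early enzyme of its synthesis, at 145, 170.2 and 163 CPM in *rve8* + DEX and 107, 104 and 117 CPM in *rve8* + mock. *CYP707A4*, a relative of *CYP707A3* outside the list, was lowered, at 1.71, 1.27 and 1.30 CPM in *rve8* + DEX and 2.59, 3.15 and 3.62 CPM in *rve8* + mock (adjusted p = 0.00671), a call lost with the *rve8* libraries alone and without any of *rve8* + DEX 1, DEX 2, DEX 3, mock 2 and mock 3. Of 23 auxin genes 2 were raised (8.70%, against 3.96% of all genes tested), *IAA4* and *IAA7* with log2 fold changes of 0.35 and 0.31. Both calls were lost without TMM factors, with the *rve8* libraries alone and without any of *rve8* + DEX 1, DEX 2, mock 1 and mock 2. Of 13 cytokinin genes 1 was raised (7.69%, and 0 without *rve8* + mock 1), *CRF6*, at 15.02, 23.0 and 20.4 CPM in *rve8* + DEX and 8.88, 10.2 and 10.50 CPM in *rve8* + mock. Ribosomal proteins, grouped by annotation after their values had been seen, were lowered in 32 of 318 cases (10.06%) and raised in 1, with a median of -0.16. *RPL23AB* was at 121, 127 and 129 CPM in *rve8* + DEX and 163, 154 and 145 CPM in *rve8* + mock. The number lowered was 5, 10 and 18 without *rve8* + DEX 1, DEX 2 and DEX 3, 16, 8 and 71 without *rve8* + mock 1, mock 2 and mock 3, and 82 without TMM factors.

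The *RVE8:GR* libraries are neither side of the *rve8* comparison, but they share its gene filter, its TMM step and its estimate of the spread. With the *rve8* libraries alone 641 genes were raised and 251 lowered. Each response was set beside that of the line with the fusion. Of the 790 genes raised in *rve8*, 615 (77.8%) also had a positive log2 fold change in *RVE8:GR* + DEX over *RVE8:GR* + mock, with a median there of 0.19, and 169 (21.4%) were called raised in it, against 2.07% of all genes tested. Of the 313 lowered genes 266 (85%) had a negative change there, with a median of -0.14, and 37 (11.8%) were called lowered, against 1.36% of all genes. The 169 are 40.8% of the 414 genes raised in *RVE8:GR* and the 37 are 13.7% of the 271 lowered in it. The test of the difference between the lines, which contains the same *rve8* libraries, called 103 of the 790 and 18 of the 313, against 1.19% of all genes tested.

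**Figure D4:**
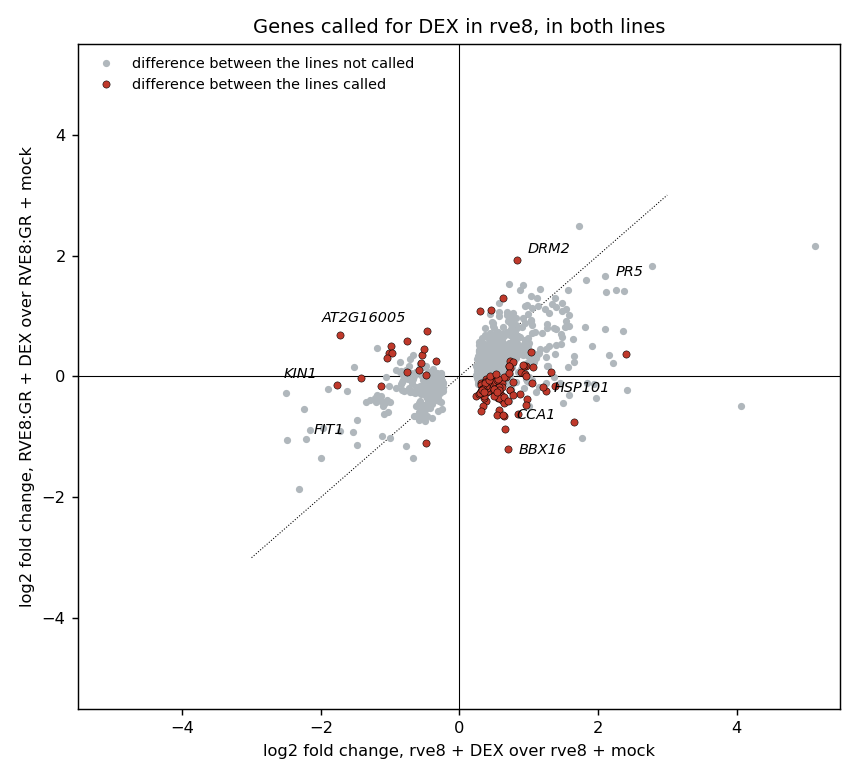
log2 fold change with DEX in *rve8* (x axis) and in *RVE8:GR* (y axis) of the 1103 genes called in *rve8*, 1 point each. Red points are genes whose response differed between the lines at an adjusted p under 0.01, and the dotted line marks equal responses. Most points lie in the quadrants of equal sign, 615 of the raised and 266 of the lowered genes.

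Some groups had medians of the same sign in both lines. The aliphatic glucosinolate list had a median of -0.48 in *rve8* and -0.55 in *RVE8:GR*, where 16 of the 25 genes were lowered, and *MYB29* alone differed (difference -0.62, adjusted p = 0.00301). *PR5* was at 10.6, 14.2 and 12.9 CPM in *RVE8:GR* + DEX and 3.85, 3.16 and 4.92 CPM in *RVE8:GR* + mock, and *FBA5* at 343, 264 and 296 CPM in *RVE8:GR* + DEX and 109, 123 and 136 CPM in *RVE8:GR* + mock. The dark and sugar genes had a median of 0.25 in *rve8* and 0.51 in *RVE8:GR*, where 17 of the 26 were raised. The heat shock list had a median of 0.51 in *rve8* and -0.10 in *RVE8:GR*, with 1 gene raised there, and the photosystem list 0.33 in *rve8* and 0.01 in *RVE8:GR*, with 0 called there. *HSP101* was at 33.0, 28.5 and 30.6 CPM in *RVE8:GR* + DEX and 31.5, 38.9 and 33.0 CPM in *RVE8:GR* + mock (log2 fold change -0.17), which differed from its response in *rve8* by -1.37 on the log2 scale (adjusted p = 0.00695). *LHB1B1* was at 1163, 1141 and 1212 CPM in *RVE8:GR* + DEX and 1086, 1032 and 1001 CPM in *RVE8:GR* + mock, levels that the *rve8* + DEX libraries came nearer to than the *rve8* + mock libraries did. The difference between the lines was called for 4 of the 25 heat shock genes and 5 of the 32 photosystem genes.

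**Figure D5:**
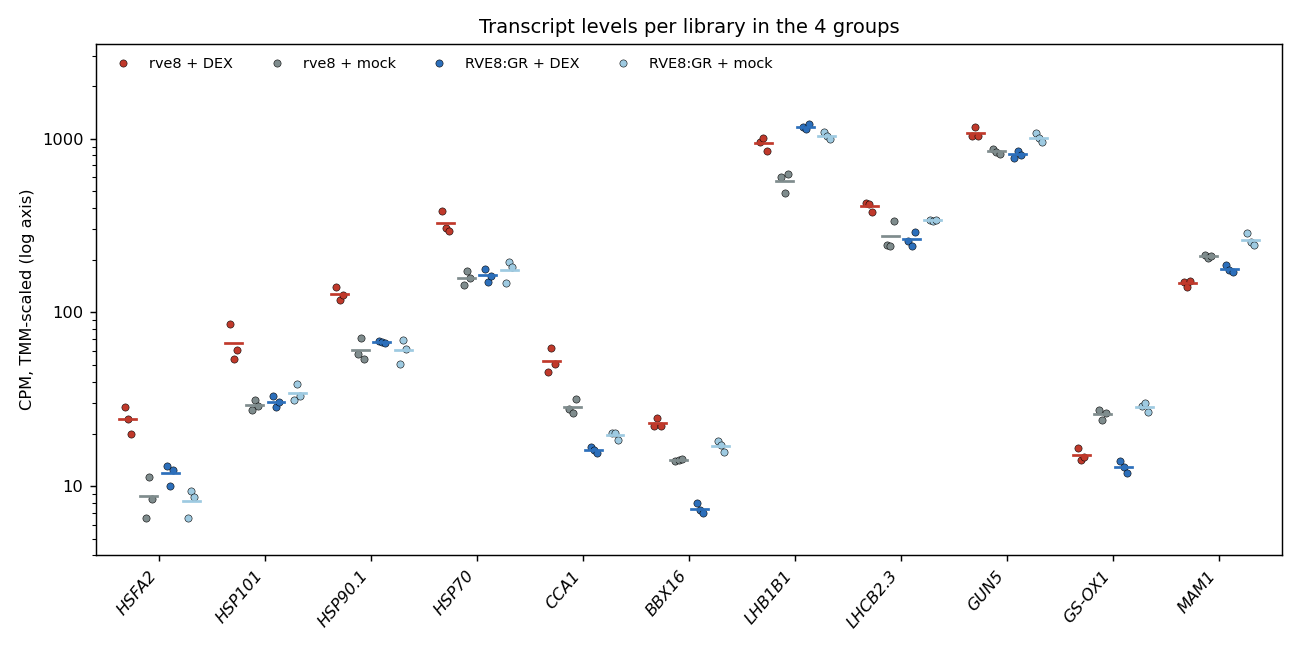
Transcript level in CPM (y axis, log scale) of 11 genes (x axis) in the 3 libraries of *rve8* + DEX, *rve8* + mock, *RVE8:GR* + DEX and *RVE8:GR* + mock, from left to right for each gene, with a bar at each mean. The heat shock genes *HSP101*, *HSP90.1* and *HSP70* are high in *rve8* + DEX only, while *GS-OX1* and *MAM1* are low in both DEX groups.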

How the data were processed

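RNA-seq libraries of *rve8* + DEX and *rve8* + mock (3 each) were compared, with the 6 *RVE8:GR* libraries in the same fit. Per the methods the 3 libraries of a group are biological replicates. The authors deposited raw counts per gene model. According to the labels and methods they used CASAVA 1.8, BWA (alignment to TAIR10 cDNA models) and Samtools and counted strand-specific reads. The treatment of reads that match several models is not given in the sources used here. Empty entries (33457) were read as a count of 0. Of 26245 models 25257 were matched to TAIR10.1 by name, 633 by locus and 355 not at all.

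Genes with at least 1 CPM in at least 3 of the 12 libraries (19961) were tested with edgeR 4.0.16 (R 4.3.3, TMM factors, robust quasi-likelihood fit of the 4 groups, no covariate). Calls needed a Benjamini-Hochberg adjusted p under 0.01 over all genes. SE was derived from the F statistic. CPM values carry TMM factors. The totals were 15975840 to 20292633 counts in the *rve8* libraries, so 3 counts equal 0.148 to 0.188 CPM. Counts were also simulated with the fitted spread, and 200 genes of at least 5 CPM were moved by 1 on the log2 scale. Of these 94% were recovered, with 3 false calls among the rest of the 19961 genes. Most genes called in the data changed by less. Smaller changes, lower genes and an odd library were not simulated, so these rates do not measure how reliable the reported calls are.

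The comparison, the 29 gene lists (602 of their 637 loci tested) and the 11 symbol families were chosen with earlier results of these data known. The 8 annotation groups were chosen after the values were seen. Named were, among called genes of at least 5 CPM whose groups did not overlap, the 15 largest increases and 12 largest decreases. In each list up to 5 called members with the largest change were named, or the most abundant member if none was called, and in each family up to 2. *CCA1*, *LHY*, *PRR9*, *PRR5*, *TOC1*, *GI* and *RVE8* were always named. Other list and family members with values in the text were added after their values were seen. *MYB113*, RVE3 and RVE5 were not analysed here. Alternatives were the exact test (50 prior degrees of freedom), DESeq2 1.42.0, no TMM factors, upper-quartile factors, no filter, at least 10 counts in every library, the *rve8* libraries alone, a replicate block, thinning to 15975840 counts, an adjusted p under 0.05, a 1.5-fold minimum and leaving out each *rve8* library. The changed threshold and the fold minimum were applied to the counts of genes only, which leaves 15 alternative fits for single genes. A gene sharing at least 10% of its 50-base stretches with another model was taken as uncertain. Python 3.11.15, numpy 2.4.6, pandas 2.3.3 and matplotlib 3.10.9 were used.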

Additional observations from a re-analysis of the deposited data

Results flagged for a closer look

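The response to DEX differed between *RVE8:GR* and *rve8* for 23 of the 120 named genes (edgeR quasi-likelihood interaction, adjusted p under 0.01). It differed for 1.19% of all genes tested. Most named genes were picked by their change in *rve8*, whose libraries the interaction also contains, so the shares cannot be compared. Values are the log2 fold change in *RVE8:GR* minus that in *rve8*. The difference was -1.89 for *BBX16*, the largest in size among those raised in *rve8*, whose own log2 fold changes were -1.20 in *RVE8:GR* and 0.69 in *rve8*. It was -1.54 for *RING1*, -1.38 for *PRR9* (which shares sequence with another model), -1.17 for *CCA1*, -1.13 for *COL2* and -0.56 for *LNK2*. Chaperone genes had -1.37 (*HSP101*), -1.15 (*HSP70*) and -0.92 (*HSP90.1*). Photosynthesis and pigment genes had -0.94 (*LHCB2.3*), -0.68 (*GUN5*) and -0.54 (*LHB1B1*). The amylases had -0.80 (*BAM9*) and -0.58 (*BAM1*), and *ABA1* and *TCH3* had -0.80 and -0.54.

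In 7 genes the difference was positive. It was 0.97 for *PRR5* and 1.09 for *DRM2*, whose log2 fold changes in *RVE8:GR* were 1.16 and 1.92. The other 5 fell in *rve8* and were not called in *RVE8:GR*, with 2.42 for the lipid-recognition protein AT2G16005, 1.61 for *KIN1*, 1.39 for *CEL5*, 1.35 for the transporter AT3G45680 and 0.98 for *CYP71A27*. AT2G16005 was at 8.97, 16.5 and 16.2 CPM in *rve8* + DEX and 40.2, 43.7 and 54.7 CPM in *rve8* + mock, and at 48.2, 45.4 and 63.0 CPM in *RVE8:GR* + DEX and 32.0, 28.1 and 36.8 CPM in *RVE8:GR* + mock. *KIN1* was at 61.1, 65.0 and 52.1 CPM in *RVE8:GR* + DEX and 70.2, 61.2 and 66.2 CPM in *RVE8:GR* + mock, so that among the 12 libraries the 3 of *rve8* + DEX alone were low.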

How the results depend on the processing

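Of the 109 named genes that were called, 61 were called in every alternative fit that tested them at the same threshold and 0 changed direction. Against 790 raised and 313 lowered genes, plain library sizes gave 520 and 803, the exact test 508 lowered, an adjusted p under 0.05 gave 1546 and 930, and a minimum of 1.5-fold 287 and 78. Leaving out 1 library gave 398 to 895 raised, 114 to 506 lowered and 134 to 317 genes whose response differed between the lines, against 237 with all libraries. DESeq2 called 438 such genes and an adjusted p under 0.05 gave 560. The replicate block gave 865 raised, 386 lowered and 260 differing genes. The deviations of same-numbered libraries had correlations of 0.045, 0.041 and -0.049, and not every library was closest to its own number. The main fit therefore used no pairing. With 3 libraries a group such correlations cannot settle whether same-numbered samples were grown or processed together. The most calls of named genes were lost without *rve8* + mock 2 (36 of 109), and the cause was not tested. Depth limits the low genes, since 3 counts equal 0.148 to 0.188 CPM in the *rve8* libraries.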

Other observations

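Some further genes, list members among them, had changes that a reader may want to look at, and were chosen after their values were seen. *PR2*, a glucanase of the salicylic acid response, had the highest log2 fold change of the salicylic acid and immunity list (5.55). It was at 3.85, 1.68 and 14.6 CPM in *rve8* + DEX and 0, 0.121 and 0.297 CPM in *rve8* + mock, without overlap, and did not pass the test (adjusted p = 0.128). *IRT1*, the iron importer, was at 1.43, 0.983 and 1.15 CPM in *rve8* + DEX and 4.29, 11.0 and 8.90 CPM in *rve8* + mock and did not pass either (adjusted p = 0.0619). Of 90 genes annotated as histones or histone enzymes 5 were lowered (5.56%, against 1.57% of all genes tested) and 0 raised. Among the lowered was the histone deacetylase *HDA3* at 114, 119 and 114 CPM in *rve8* + DEX and 193, 179 and 139 CPM in *rve8* + mock. The number was 3 without *rve8* + DEX 1 or DEX 3, 2 without *rve8* + mock 2 and 10 without *rve8* + mock 3. *SWEET12*, a sucrose exporter, and *SUC2*, the phloem loader, had log2 fold changes of 0.58 ± 0.11 and 0.39 ± 0.07 in *rve8* (both raised), and of 1.06 and 0.45 in *RVE8:GR*. *VTE1*, the tocopherol cyclase, was at 22.2, 25.2 and 22.9 CPM in *rve8* + DEX and 16.1, 13.4 and 15.7 CPM in *rve8* + mock, with a log2 fold change of -0.34 in *RVE8:GR* (difference -0.98, adjusted p = 4.64e-04).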
